A study of Mus musculus with 12 samples.

Results

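Pmp22, Mbp, Prx, Mag, Cldn19, Drp2, Sox10 and Egr2 are 8 genes of the Schwann cell, the glial cell that wraps the axons of peripheral nerve. They were taken by symbol from a muscle RNA-seq table of 31057 genes. All 8 were found, each under 1 gene ID, and all 8 passed the filter on low counts that 17201 genes passed. After the sciatic nerve was cut, 6 of the 8, those whose products build the myelin sheath or its contacts, fell in both genotypes. Their transcripts dropped to between 10.7% and 54.0% of the level of the intact leg in control mice. The 2 transcription factor genes, Sox10 and Egr2, did not fall, and in no comparison between the genotypes did any of the 8 pass the test.

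The samples were whole tibialis anterior muscles of C57BL/6 mice aged 7 weeks, in 4 groups of 3. WT mice are H2A-Z.1 flox/flox and H2A-Z.2 flox/flox without Cre (HSA Cre WT), and dKO mice are H2A-Z.1-/- and H2A-Z.2-/- with HSA Cre+. The HSA promoter of this Cre is that of human skeletal actin and works in muscle fibres, so the Schwann cells of a dKO muscle are not the cells that this promoter serves. The left sciatic nerve was cut at 2 points in anaesthetised animals and the muscle was taken after 48 h as the denervated sample, and the other leg, which had no operation, gave the innervated sample. Loss of the nerve and the operation on that leg cannot be told apart.

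Library totals ran from 55668606 to 87753152 counts. The CPM of H2afv, the gene of H2A-Z.2, was 18.5 to 24.0 in WT libraries of intact legs and 5.06 to 6.06 in dKO libraries of intact legs, and that of H2afz, the gene of H2A-Z.1, was 10.9 to 15.6 and 6.74 to 9.93. CPM is the count of a gene per 1e+06 counts of its library, after scaling of the library sizes by TMM, a method that sets the bulk of genes equal between libraries. Libraries WT_denervated 2 and dKO_innervated 1 held less signal in GC-rich genes than the other libraries of their groups, with a correlation between deviation and GC content of -0.52 and -0.38 over 12415 genes, against -0.20 to 0.35 in the other 10.

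A myelinating Schwann cell wraps 1 segment of 1 axon in a spiral of membrane. Pmp22 and Mbp proteins help to hold the layers of compact myelin together, while Mag lines the inner face next to the axon, Cldn19 seals the loops at the edges, and Prx with Drp2 ties the outer face to the basal lamina. Sox10 keeps the cell in the Schwann lineage, and together with Egr2 it switches on the myelin genes. When an axon is cut, the part beyond the cut degenerates, and its Schwann cells are known to take down the myelin programme and to turn into repair cells that express Jun, Sox2, Ngfr, Gdnf and Shh. In whole muscle, fewer Schwann cells and less RNA per Schwann cell cannot be told apart. Which cells of the muscle carried the RNA of each of the 8 genes was not tested.

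Promoter windows of RefSeq (build GRCm38.p6, 250 bases before to 50 after a start) were at hand for 5 of the 8 genes, namely Pmp22 with 4 starts, Prx with 1, Mag with 3, Cldn19 with 2 and Egr2 with 5, and Mbp, Drp2 and Sox10 had no entry. Shown here are the first windows of Prx, Mag and Cldn19, the 3 members with the largest decrease in both genotypes. Capitals mark the letters of a SOX-type motif (AACAAT or ACAAAG on either strand), and an EGR-type motif (GCGTGGGCG or GCGGGGGCG on either strand) was searched as well.
Prx, chr7:27499074-27499373, plus strand: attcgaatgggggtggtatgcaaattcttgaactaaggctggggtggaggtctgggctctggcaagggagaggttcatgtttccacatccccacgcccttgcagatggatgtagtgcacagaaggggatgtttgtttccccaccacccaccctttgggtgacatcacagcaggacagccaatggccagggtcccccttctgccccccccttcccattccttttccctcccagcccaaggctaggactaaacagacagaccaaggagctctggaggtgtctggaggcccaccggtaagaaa
Mag, chr7:30914814-30915113, minus strand: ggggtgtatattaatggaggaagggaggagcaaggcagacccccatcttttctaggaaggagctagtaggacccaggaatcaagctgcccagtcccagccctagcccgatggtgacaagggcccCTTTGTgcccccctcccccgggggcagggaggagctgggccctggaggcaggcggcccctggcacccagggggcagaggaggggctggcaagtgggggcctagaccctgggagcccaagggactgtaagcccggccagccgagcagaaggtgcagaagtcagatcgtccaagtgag
Cldn19, chr4:119255191-119255490, plus strand: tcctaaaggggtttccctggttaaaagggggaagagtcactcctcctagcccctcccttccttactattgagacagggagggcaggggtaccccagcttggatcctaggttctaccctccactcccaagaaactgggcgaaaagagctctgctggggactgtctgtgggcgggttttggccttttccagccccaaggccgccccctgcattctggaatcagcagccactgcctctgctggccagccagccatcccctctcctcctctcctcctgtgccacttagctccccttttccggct
Among all 15 windows of the 5 genes, the SOX-type letters occurred in the first and second windows of Mag, which overlap and hold the same site, and the EGR-type letters occurred in 0. Over 32851 RefSeq promoter windows of that length, 27.0% held the SOX-type letters and 3.47% the EGR-type letters. Such a match describes letters in a window and is neither a binding site nor a cause.

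In intact WT legs the genes differed widely in level. On the authors' scale of normalized counts per kb of gene length, the scale on which levels of different genes are compared here, Pmp22 stood at 2866 ± 206 (SD, n = 3), Mbp at 578 ± 24.4, Drp2 at 198 ± 13.7 and Prx at 162 ± 7.23. Cldn19 followed at 53.0 ± 5.38, Sox10 at 46.1 ± 4.05, Egr2 at 33.1 ± 10.5 and Mag at 19.1 ± 4.91. Neighbours in that order overlapped over their 3 libraries for Cldn19 with Sox10 and for Sox10 with Egr2, and the other neighbours did not overlap. After denervation in WT the order on the same scale was Pmp22 at 1135 ± 144, Mbp at 311 ± 17.5, Drp2 at 72.3 ± 4.04, Egr2 at 59.3 ± 20.6, Sox10 at 52.2 ± 6.53, Prx at 30.0 ± 6.73, Mag at 5.80 ± 1.59 and Cldn19 at 5.62 ± 1.09. Both transcription factor genes thus stood above Prx in cut legs and below it in intact ones.

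The first question the design poses for these genes is how they respond to transection in each genotype. In WT, 6 of the 8 fell and 0 rose, where 21% of all tested genes fell and 23.1% rose. In dKO, 6 fell and 1 rose, where 20.2% of tested genes fell and 21.9% rose. The median log2 fold change of the 8, denervated over innervated, was -1.39 in WT and -1.22 in dKO, beside -0.00 and -0.03 over all tested genes. The cut legs lay wholly below the intact legs for 6 of the 8 in each genotype, as for 25.1% of tested genes in WT and 26% in dKO, and wholly above them for 1, Sox10, in dKO, as for 26.6%. A call means a p below 0.05 in edgeR's quasi-likelihood test after adjustment over the 17201 tested genes by Benjamini and Hochberg. The 8 genes were chosen with earlier results of these data known, so their shared direction is a description of them.

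**Figure D1:**
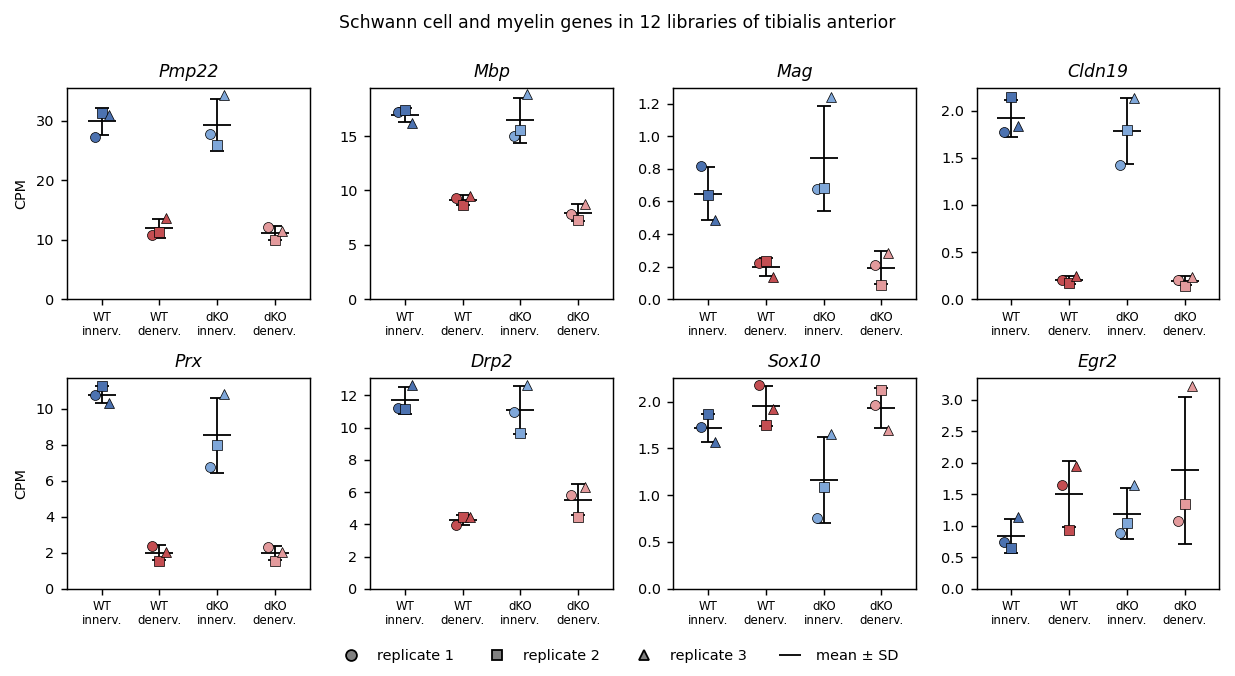
CPM of the 8 genes in each of the 12 libraries, with the group on the horizontal axis, a vertical axis from 0 for each gene, 1 symbol per replicate number and bars for the mean ± SD of 3. The denervated libraries of Pmp22, Mbp, Mag, Cldn19, Prx and Drp2 lie below every innervated library. Those of Egr2 overlap the innervated ones in both genotypes, and those of Sox10 overlap them in WT and lie above them in dKO.

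Among the compact myelin genes, Pmp22 encodes a membrane protein whose gene dosage is altered in the commonest inherited neuropathy, and it lies on chromosome 11 from 63128982 to 63159547 (GRCm38, plus strand). Its CPM in WT replicates 1, 2 and 3 was 27.3, 31.3 and 31.1 in intact legs and 10.7, 11.2 and 13.7 in cut legs. In dKO it was 27.8, 26.0 and 34.3 in intact legs and 12, 9.89 and 11.5 in cut legs. Every cut leg was below every intact leg. The log2 fold change was -1.33 (SE 0.13) in WT with an edgeR adjusted p of 3.08e-06, and -1.40 (SE 0.13) in dKO with 2.16e-06.

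Mbp encodes myelin basic protein, which lies on the inner side of the membrane and zips its layers together. In WT its CPM was 17.2, 17.4 and 16.2 in intact legs and 9.33, 8.64 and 9.47 in cut legs. The dKO values were 15.0, 15.6 and 18.8 in intact legs and 7.84, 7.26 and 8.79 in cut legs. The groups did not overlap, and the change was the smallest of the 6 in WT and, after that of Drp2, the next smallest in dKO. It came to -0.89 (SE 0.10) on the log2 scale in WT, edgeR adjusted p = 1.66e-05, and to -1.05 (SE 0.10) in dKO, adjusted p = 4.42e-06.

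Prx encodes periaxin, a scaffold of the outer Schwann cell membrane, and lies on chromosome 7 from 27499324 to 27520214 (plus strand). Its CPM in WT was 10.8, 11.2 and 10.3 in intact legs and 2.38, 1.54 and 2.06 in cut legs. In dKO it was 6.74, 8.01 and 10.8 in intact legs and 2.31, 1.54 and 2.06 in cut legs. The cut legs of the 2 genotypes fell in the same narrow band, while intact dKO legs were more spread than intact WT legs. Prx fell by 2.44 (SE 0.20) on the log2 scale in WT, edgeR adjusted p = 1.00e-06, and by 2.11 (SE 0.20) in dKO, adjusted p = 3.43e-06. Denervated levels were thus 18.5% and 23.2% of innervated ones.

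Drp2 encodes dystrophin-related protein 2, which joins periaxin to dystroglycan in the patches where the outer membrane meets the myelin, and lies on chromosome X from 134404551 to 134456573 (plus strand). In WT its CPM was 11.2, 11.2 and 12.7 in intact legs and 3.94, 4.45 and 4.47 in cut legs. The dKO values were 10.9, 9.69 and 12.7 in intact legs and 5.80, 4.47 and 6.33 in cut legs. Cut legs were below intact legs in both genotypes, and each cut dKO leg was above the highest cut WT leg, replicate 2 barely so. The log2 fold change was -1.45 (SE 0.14) in WT, edgeR adjusted p = 3.16e-06, and -1.0 (SE 0.14) in dKO, adjusted p = 6.38e-05.

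Cldn19 encodes claudin-19, the tight junction protein of Schwann cells, and lies on chromosome 4 from 119255414 to 119262438 (plus strand). In WT its CPM was 1.78, 2.14 and 1.84 in intact legs, from 117 to 133 raw counts, and 0.198, 0.168 and 0.247 in cut legs, from 15 to 20 counts. In dKO it was 1.43, 1.80 and 2.13 in intact legs and 0.207, 0.141 and 0.234 in cut legs. This was the largest change of the 8, a decrease of 9.35-fold in WT and 9.10-fold in dKO. On the log2 scale it was -3.23 (SE 0.23), edgeR adjusted p = 3.41e-07, and -3.19 (SE 0.24), adjusted p = 4.53e-07.

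Mag encodes myelin-associated glycoprotein, a membrane lectin that faces the axon, and lies on chromosome 7 from 30899176 to 30914873 (minus strand). Its CPM in WT was 0.816, 0.641 and 0.487 in intact legs and 0.225, 0.231 and 0.136 in cut legs. The dKO values were 0.676, 0.684 and 1.24 in intact legs and 0.207, 0.0846 and 0.286 in cut legs. These values rest on 31 to 72 raw counts per intact leg and 6 to 22 per cut leg. The total of Mag over the 12 libraries, 383 counts, was the lowest of the 8. In cut legs Cldn19 was about as low, at 10 to 20 counts. The standard errors of Mag were the largest among the 6 that fell. The log2 fold change was -1.71 (SE 0.39) in WT, edgeR adjusted p = 0.00331, and -2.14 (SE 0.40) in dKO, adjusted p = 0.000724.

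The 6 genes fell by unequal amounts. The ratio of Prx to Mbp on the authors' per-kb scale was 0.277 to 0.284 in the 3 intact WT legs and 0.0788 to 0.113 in the cut ones, and 0.198 to 0.253 and 0.0934 to 0.130 in dKO. For Cldn19 to Mbp it was 0.0837 to 0.0994 in intact and 0.0157 to 0.0211 in cut WT legs, and 0.0769 to 0.0934 and 0.0157 to 0.0215 in dKO. These ratios are formed within a library, so the scaling between libraries does not enter them. Prx and Cldn19 overlap the exons of an unnamed gene on the other strand, Gm15541 and Gm12927 in GENCODE M21, and with the strand setting of the counting not given, reads of the 2 strands may be mixed in those counts.

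Sox10 encodes the transcription factor that all Schwann cells need, and lies on chromosome 15 from 79154908 to 79165240 (minus strand). In WT its CPM was 1.73, 1.87 and 1.57 in intact legs and 2.18, 1.75 and 1.93 in cut legs. In dKO it was 0.751, 1.09 and 1.65 in intact legs and 1.97, 2.13 and 1.70 in cut legs. The WT groups overlapped. The dKO groups did not, although replicate 3 gave nearly the same value in both legs. The log2 fold change in WT was 0.18 (95% interval -0.30 to 0.66, edgeR adjusted p = 0.549), which excludes a decrease as large as that of any of the 6 genes above. Sox10 rose in dKO, by 0.74 (SE 0.23, adjusted p = 0.0192), and this call was lost without any 1 of 3 libraries, at 0.50 (adjusted p = 0.0694) without dKO_innervated 1, 0.70 (0.0606) without dKO_innervated 2 and 0.68 (0.0628) without dKO_denervated 2. dKO_innervated 1, the library with the lowest Sox10 value, is 1 of the 2 with little signal in GC-rich genes, and the longest Sox10 transcript, at 61.8% GC, is richer than those of 98.6% of genes. With every library's trend on GC content taken out, an alternative chosen after seeing the data, the change in dKO was 0.76 (edgeR adjusted p = 0.00627). That trend was fitted to deviations from the mean of the library's own group. It therefore takes out spread within a group and leaves a shift of the group mean nearly as it was. Whether the GC trend of dKO_innervated 1 entered the change cannot be read from it. The degrees of freedom it uses were not taken off, so its p may be too small.

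Egr2, also called Krox20, encodes the zinc finger factor that turns on the myelin genes, and lies on chromosome 10 from 67535475 to 67542188 (plus strand). In WT its CPM was 0.736, 0.641 and 1.15 in intact legs and 1.64, 0.935 and 1.95 in cut legs. The dKO values were 0.886, 1.04 and 1.65 in intact legs and 1.07, 1.34 and 3.22 in cut legs. The groups overlapped in both genotypes, and replicate 3 gave the highest value in all 4 groups. Its log2 fold change was 0.83 (SE 0.42, edgeR adjusted p = 0.131) in WT and 0.66 (SE 0.41, adjusted p = 0.217) in dKO, past the threshold in neither. Without dKO_denervated 3 the dKO value was 0.05. Legs of the same replicate number deviated together across genes, with correlations of 0.459, 0.271 and 0.279 in WT and 0.283, 0.509 and 0.197 in dKO, and with the replicate number as a block Egr2 passed in both genotypes, at 0.84 (edgeR adjusted p = 0.0051) in WT and 0.56 (adjusted p = 0.0317) in dKO. That block called 8498 of the 17201 tested genes in WT and 8186 in dKO, against 7576 and 7233 without it. Legs were also paired by replicate number, although the labels do not tie legs to animals. Egr2 was then higher in the cut leg in 6 of 6 pairs and Sox10 in 5 of 6, while each of the other 6 genes was lower in 6 of 6. The share of all tested genes with 6 of 6 pairs in 1 direction was not counted. These pair counts describe the 8 genes only.

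**Figure D2:**
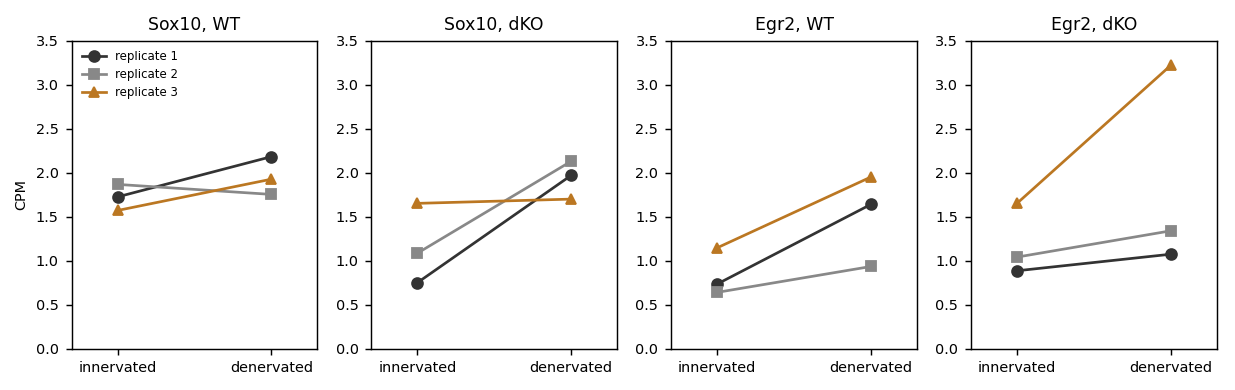
CPM of Sox10 and Egr2 in the innervated and the denervated leg, with a line joining legs of the same replicate number within a genotype and a common vertical axis from 0. All 6 lines of Egr2 climb, and 5 of the 6 lines of Sox10 climb.

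The second question is whether muscle-fibre loss of H2A.Z was accompanied by a difference in these genes. In intact legs 0 of the 8 passed the edgeR test between dKO and WT, where 0.459% of tested genes did, and 1 had an unadjusted p under 0.05, where 10.5% of tested genes did. That gene was Sox10, at -0.57 (95% interval -1.07 to -0.07) on the log2 scale, dKO over WT, with an edgeR adjusted p of 0.398. It was at -0.34 (adjusted p = 0.746) without dKO_innervated 1 and at -0.90 (adjusted p = 0.112) without dKO_innervated 3. The intervals of Pmp22 (-0.29 to 0.24), Mbp (-0.26 to 0.18) and Drp2 (-0.36 to 0.21) leave room for differences of that size only, while those of Mag (-0.36 to 1.16) and Egr2 (-0.44 to 1.43) are wide. That of Cldn19 was -0.53 to 0.32. Prx was at -0.34 (-0.75 to 0.07), and at -0.55 without dKO_innervated 3 (edgeR adjusted p = 0.300).

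In denervated legs 0 of the 8 passed as well, where 0.36% of tested genes did, and DESeq2 called 0 in either kind of leg. The one gene with an unadjusted p under 0.05 (9.78% of tested genes) was Drp2. Its cut dKO legs did not overlap its cut WT legs, as held for 14% of tested genes, and it stood 0.37 higher on the log2 scale (95% interval 0.07 to 0.67, edgeR adjusted p = 0.374). The test of the difference between the 2 denervation responses called 0 of the 8 and 0% of tested genes. By DESeq2 it also called 0 genes, by edgeR without the filter on low counts 2, neither of them among the 8, and 2.17% of tested genes had an unadjusted edgeR p under 0.05. Among the 8 that was Drp2 alone, at 0.44 (95% interval 0.03 to 0.86, edgeR adjusted p = 1.00), a smaller decrease in dKO. For Sox10, called in dKO and not in WT, the difference was 0.56 (95% interval -0.13 to 1.25), so a different response was not shown. Without dKO_innervated 3 that difference was 0.89 (SE 0.26, edgeR adjusted p = 1.00).

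**Figure D3:**
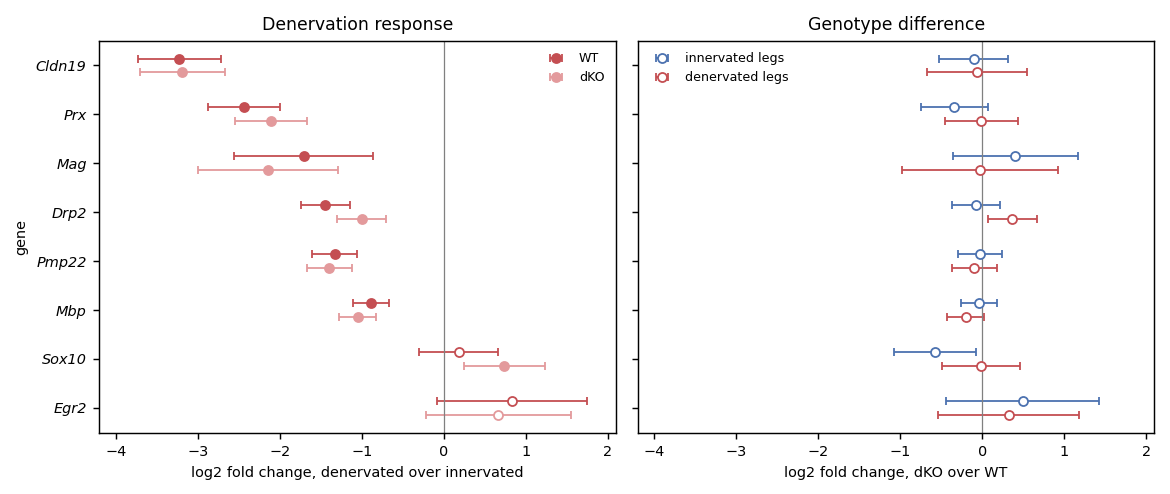
Log2 fold changes of the 8 genes with 95% intervals from edgeR, for denervated over innervated legs in each genotype (left) and for dKO over WT in each kind of leg (right), where filled points pass the adjusted threshold. The 6 structural genes lie left of 0 in both genotypes, from -3.23 for Cldn19 to -0.89 for Mbp in WT, and no point of the genotype panel is filled.

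The wider Schwann cell programme was read from 7 lists of known genes, chosen with earlier results in view, of which 77 genes were tested. In WT 21 of the 77 rose and 27 fell, where 23.1% and 21% of all tested genes did, and in dKO 25 rose and 24 fell, where 21.9% and 20.2% did. Without the 8 members, 21 of 69 rose and 21 fell in WT, and 24 rose and 18 fell in dKO. None of the 77 passed in either genotype comparison. The median log2 fold change of the 77 was 0.03 in WT and -0.04 in dKO, close to that of all tested genes. Of the genes of these lists named next, Cd9, Cnp, Itgb4, Nab2, Jun, Runx2, Shh, Bdnf and Lgi4 overlap exons of a gene on the other strand, as Prx and Cldn19 do.

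Of 7 compact myelin genes, 5 fell and 1 rose in both genotypes. Mal, a lipid raft protein of myelin, changed by -2.15 and -1.91, and Pmp2, a fatty acid carrier of myelin, by -1.39 and -1.85. The exons of Pmp2 overlap those of Gm37389 on the same strand, a near-identical entry at the same place that may share its reads. Cd9 was at -0.14 and -0.24 and passed in neither.

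Of 15 genes of uncompacted myelin, the periaxin complex and the junctions, which include 4 of the 8 members, 11 fell and 2 rose in WT and 8 fell and 2 rose in dKO. Cnp, an enzyme of the cytoplasmic channels of myelin, changed by -1.15 and -1.17, and Itgb4, the laminin receptor subunit of the outer membrane, by -1.11 and -1.06. Gjb1, which encodes the gap junction protein connexin 32, rose although it is a gene of the myelin sheath. Its CPM was 0.214, 0.183 and 0.173 in intact and 2.58, 2.08 and 2.12 in cut WT legs, a log2 change of 3.55 (SE 0.44, edgeR adjusted p = 3.15e-05), and it changed by 3.28 (SE 0.42) in dKO. Gldn, which encodes gliomedin of the node of Ranvier, rose by 1.10 and 0.85.

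Among 9 tested transcription factor genes of the Schwann lineage, 1 rose and 1 fell in WT, and 4 rose and 1 fell in dKO. Yy1 rose by 0.34 and 0.46, and Nfatc4, a factor that works with Sox10, was at -0.63 and -0.44, a decrease in both. Nab2, a partner of the Egr proteins, was at 0.11 in WT and rose by 0.47 in dKO (edgeR adjusted p = 0.00159). The dKO count of 4 was 2 without dKO_innervated 2. Pou3f1, the factor of the promyelinating stage, had 2 counts in all 12 libraries together and was not tested.

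Of 10 genes that hold myelination back or respond to injury, 7 rose in both genotypes and 1 fell, in WT alone. Sox2, a factor of immature Schwann cells, had 2 to 4 counts per intact leg and 41 to 65 per cut leg, a log2 change of 3.67 (SE 0.36) in WT and 3.76 (SE 0.37) in dKO (edgeR adjusted p = 3.59e-06 and 3.77e-06). Jun, the factor that drives the repair state, rose by 1.84 and 2.01, Id2 by 2.89 and 3.29 and Atf3 by 3.47 and 3.62. Jun, Id2, Atf3 and Egr1 are also known as genes of muscle fibres and of other cells under stress. For these and all other genes of the 7 lists, which cells of the muscle carried the change was not tested. The WT count of 7 was 5 without WT_innervated 1, without WT_innervated 3 or without WT_denervated 3, where Egr1 and Runx2 no longer passed.

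Of 15 tested genes of immature, repair and nonmyelinating Schwann cells, 7 rose in each genotype, 2 fell in WT and 3 in dKO. Ngfr, the low-affinity neurotrophin receptor p75, had a CPM of 1.30, 1.59 and 1.48 in intact and 13.6, 8.22 and 12.4 in cut WT legs, and of 1.10, 1.47 and 1.27 and then 10.1, 10.3 and 10.1 in dKO. The log2 change was 2.97 (SE 0.18) and 2.99 (SE 0.18), edgeR adjusted p = 8.03e-08 and 8.06e-08. Gdnf, a survival factor for motor neurons, rose by 3.82 and 3.58, and Gap43, a growth cone protein, by 2.58 and 1.91. Shh, a secreted signal that Schwann cells make after injury, went from 2 counts over the 3 intact WT legs to 117 over the 3 cut ones, a ratio of 44.8 with a 95% counting interval of 12.1 to 375. In dKO it went from 0 to 110 counts, at least 31.9-fold higher against a floor of 3 counts over the group. S100b, a calcium-binding protein of Schwann cells, changed by -1.46 and -1.39, and Bdnf by -0.98 and -0.75, both decreases.

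Of 11 genes of myelin lipid synthesis, 5 fell in each genotype, while 2 rose in WT and 3 in dKO. The enzymes of the myelin sphingolipids were among the decreases. Ugt8a, which makes galactosylceramide, changed by -2.16 (SE 0.23) and -2.32 (SE 0.23), and Gal3st1, which sulphates it, by -1.69 and -1.18. Fa2h, which hydroxylates its fatty acid, had 59 counts over the 3 intact WT legs and 42 over the dKO ones, and 0 over the cut legs of each, so it was at least 25.7-fold and 16.1-fold lower against the same floor. The WT count of 2 that rose was 0 without WT_innervated 1, WT_denervated 1 or WT_denervated 3.

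Of 10 receptors and signalling genes, 1 rose and 2 fell in both genotypes. The neuregulin receptor gene Erbb3, which Schwann cells express with or without myelin, was at 0.04 (SE 0.17) in WT and 0.16 (SE 0.17) in dKO on the log2 scale, past the threshold in neither. Lgi4, a secreted protein that Schwann cells need to myelinate, fell by 1.04 and 0.85, and its partner Adam22 by 0.46 and 0.43. Mpp5, a polarity protein, rose by 0.42 and 0.44.

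**Figure D4:**
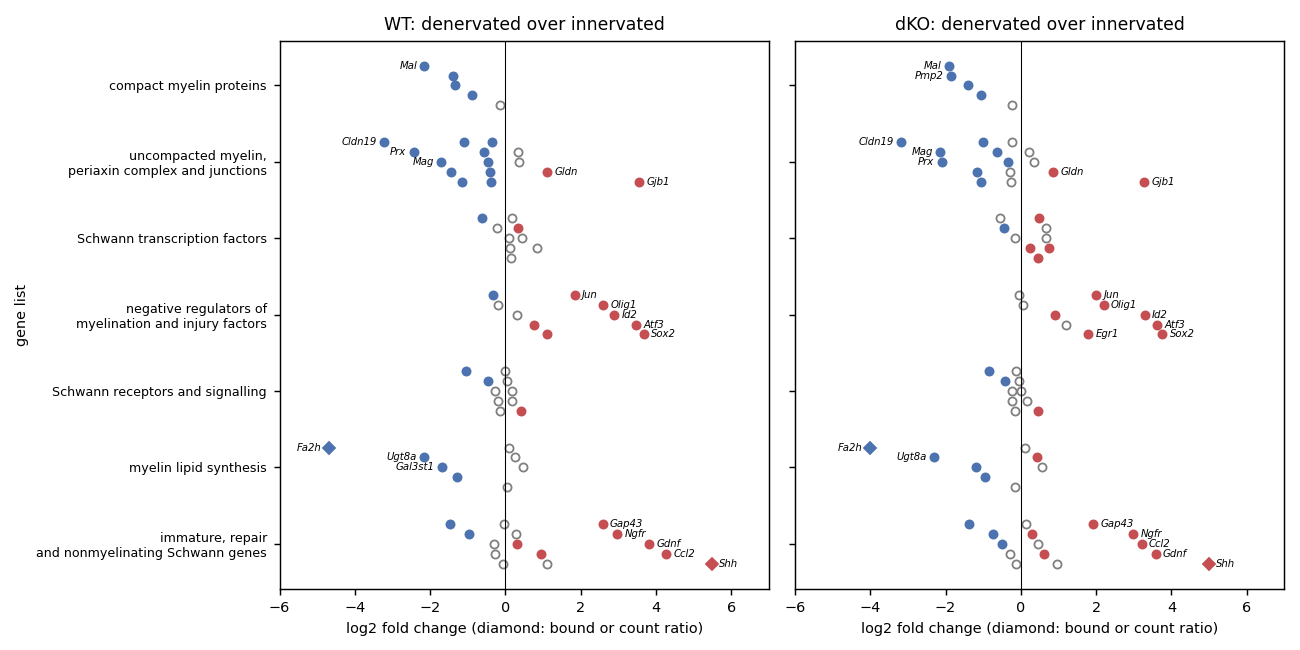
Log2 fold change after denervation of the tested genes of the 7 Schwann lists that are reported here in WT (left) and dKO (right), red where it rose, blue where it fell and open where it did not pass. Circles are edgeR values, and diamonds are the bound against 3 counts or, for Shh in WT, the ratio of counts. Of the compact myelin genes drawn, Mal, Pmp2, Pmp22 and Mbp lie left of 0, and the injury and repair genes Sox2, Atf3, Gdnf, Ngfr and Shh lie far right in both genotypes.

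Markers of other cells of the muscle were counted in the same way. Of all tested genes, 23.1% rose and 21% fell in WT, and 21.9% rose and 20.2% fell in dKO. The genes of the oligodendrocyte, the myelinating cell of the central nervous system, summed to 0.366 to 0.931 CPM per library over 9 genes in the table, and Mog was at 0 counts in 6 of the 12 libraries. Of 6 tested axon genes, 2 fell in each genotype, 2 rose in WT and 1 in dKO. Among them Prph, an intermediate filament of motor axons, fell by 1.04 and 0.97, and Tubb3, a neuronal tubulin, rose by 2.62 in WT and 2.20 in dKO. Of 6 tested genes of perineurial cells, which ensheath nerve fascicles, 2 rose and 2 fell in each genotype. The summed CPM of the 10 fibroblast genes was 4500 to 6089 in intact and 2585 to 3996 in cut WT legs, with 6 of 10 fallen, and in dKO it was 4171 to 6041 and 2987 to 3290, with 4 fallen. Col1a1 and Col3a1 weighed most in the WT sum, at means of 2632 and 1710 CPM in intact and 1208 and 1039 in cut legs. Of the 10 fibroblast genes, 4 did not pass in WT and 6 did not pass in dKO. The summed CPM of the 8 endothelial genes was 537 to 609 in intact and 396 to 472 in cut WT legs, with 5 fallen, and 476 to 559 and 390 to 432 in dKO, with 4 fallen. Of 10 fibre genes 5 fell in WT and 4 in dKO, and the 10 summed to 109110 to 152678 CPM in intact and 87439 to 101034 in cut WT legs. The part of these changes in the values of the 8 genes was not tested.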

How the data were processed

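The 8 genes and all lists were chosen with earlier results of these data known. RNA of 12 muscles (4 groups of 3, called biological replicates in the labels) was made into stranded libraries depleted of ribosomal RNA, per the labels' protocols. TopHat2 2.0.14, Bowtie, HTSeq 0.6.1 and the build mm9 are named without roles, per the submitters' processing notes. The annotation release, or whether reads were counted by strand, is not given in the sources used here. Deposited were raw counts, normalized counts (a signal the authors made with 1 factor per library) and that signal per kb. The table also holds the authors' log2 fold changes and p-values, per the file headers, which are not used for any result here. Counts as deposited were scaled by TMM, filtered by group (17201 of 31057 genes kept, 99.975% of counts) and fitted as 4 group means with edgeR 4.0.16 (R 4.3.3, limma 3.58.1). Contrasts were tested by quasi-likelihood, with the Benjamini-Hochberg method applied in each to the p-values of all 17201 genes, at 0.05. The fit was tested on simulated data. A floor of 3 counts equals 0.0315 to 0.0549 CPM per library, and it covers counting error only.

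The lists, 17 in all with 163 of 167 entries found, are described by counts and medians. The 8 members are always named, genes of the 7 Schwann lists may be, and from other lists up to 3 with the highest mean CPM and up to 2 called with the largest change. Mog and the sums are named as defining markers, chosen after their values were seen. Some genes of the lists enter the counts and medians and are not reported here. Positions, exon overlaps, copies and GC content come from GENCODE M21 (GRCm38, another build than mm9). Whether replicate numbers pair legs was checked over 12705 genes: the correlation was 0.197 to 0.509 for legs with the same number and at most 0.0884 for others. All 6 pairs were over 0.1, so the numbers were taken to pair the legs in the replicate block, while the main fit does not use them. For dKO over WT that block joined equal numbers of the 2 genotypes, which are legs of different mice. The labels do not tie legs to animals, and p-values measure the spread between these samples. Alternatives were DESeq2 1.42.0, other scaling, no filter, 2 groups alone, the replicate block, GC trends removed (added after seeing the data) and libraries left out.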

Additional observations from a re-analysis of the deposited data

How the results depend on the processing

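The numbers of members called stayed within 1.5 times their values under every alternative run, 104 in all over the 5 comparisons. In WT they ran from 6 to 7, in dKO from 6 to 8, and in the other 3 comparisons they were 0. The 6 structural genes kept their call and direction in both genotypes. With the replicate block 7 members were called in WT and 8 in dKO, Egr2 being the added gene in each, and no other member's call changed. Calls rose over all 17201 tested genes as well, from 7576 to 8498 in WT and from 7233 to 8186 in dKO. Without a filter on low counts Egr2 passed in WT too (0.83, edgeR adjusted p = 0.0250). With dKO_innervated 1 and WT_denervated 2 both left out, Sox10 in dKO was at 0.50 (adjusted p = 0.0654). At a threshold of 0.01 it also dropped out. Of 792 alternative values of members 41 had another sign than the main one, all of them past the threshold in neither fit, with main values of at most 0.32 in size. Over the other Schwann genes this held for 31 of 2759. Of all tested genes, DESeq2 called 264 between genotypes in intact and 289 in cut legs, against 79 and 62 by edgeR, none of them a member. Depth limits Mag and Cldn19 in cut legs most, at 6 to 22 and 10 to 20 counts. For the alternatives that changed a call, the cause was not tested.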

Other observations

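Few genes of immune cells passed the test. Of all tested genes, 23.1% rose and 21% fell in WT, and 21.9% rose and 20.2% fell in dKO. Of 12 tested macrophage genes 2 rose and 1 fell in each genotype. Cd68, a lysosomal protein of macrophages, rose by 2.01 and 2.31 on the log2 scale (edgeR adjusted p = 4.60e-06 and 1.53e-06), while Lyz2 and Mrc1, among the most abundant of the list, were at 0.20 and 0.34 in WT and -0.02 and 0.25 in dKO and passed in neither. Cd163, a marker of resident macrophages, fell by 0.73 and 0.37. The list summed to 166 to 193 CPM in intact and 183 to 211 in cut WT legs. Of 4 tested neutrophil genes 1 rose, S100a8, from 0.136 to 16.3 CPM in WT and from 0.128 to 26.2 in dKO, while Cxcr2 was at 0.05 and -0.03. Of 5 satellite cell genes 2 rose in WT and 1 in dKO, with Cdh15 at 0.66 and 0.85 in both, and of 6 adipocyte genes Fabp4 fell by 0.39 and 0.47.

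The genes whose deviations from their group means were most like those of a member over the 12 libraries, among the 12705 with a mean of 1 CPM or more, were C1qtnf6 for Pmp22 (Pearson r of 0.984), Sema3b for Mbp (0.913), Six5 for Prx (0.943), Galnt4 for Mag (0.908), Nckipsd for Cldn19 (0.930), Inadl for Drp2 (0.962), Pde4c for Sox10 (0.958) and Klc1 for Egr2 (0.955). These are the highest of many values over libraries that share their depth and GC trends, and they are given as a description. Among members the highest such correlation was that of Mbp with Cldn19 (0.852), and the lowest that of Drp2 with Sox10 (-0.01).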
